A study of Arabidopsis thaliana with 12 samples.

Results

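The NAC proteins are a plant-specific family of transcription factors that share a DNA-binding domain near the N-terminus. The genes described here are 47 NAC loci of Arabidopsis thaliana, picked by locus identifier from the 32833 genes of a leaf RNA sequencing table, with known roles in stress, senescence and membrane-anchored signalling. All 47 were in the table. The rule names loci, but the members were chosen with earlier results of these data known. Transcripts were measured in 3 libraries of each of 4 genotypes as FPKM, that is, fragments per gene scaled by gene length and by library size. The genotypes were the Columbia wild type (WT, Col-0), the knockout of CRWN1 and CRWN4 (crwn1;4, the double mutant), and crwn1;4 combined with a CRISPR mutation of either PNET2_A (crwn1;4 pnet2_a) or PNET2_B (crwn1;4 pnet2_b). The last pair are called the pnet2_a and pnet2_b triple mutants, and every mutant library therefore carries crwn1;4. The plants were untreated and their age is given as 3 weeks in the sample titles and as 4 weeks in the protocol. Each RNA preparation used about 50 mg of leaf. The labels name no allele number, line or clone, and do not say that replicates came from separate plants, so the spread behind the p-values, that between libraries, may be a technical one.

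The CRWN proteins are long coiled-coil components of the lamina-like layer in plant nuclei, and PNET2 proteins sit in the nuclear envelope. The comparisons ask what the loss of the CRWN pair changes and what each PNET2 mutation adds to it. CRWN1 was at 12.4 ± 0.949 FPKM in WT, 1.87 ± 0.129 in crwn1;4, 1.67 ± 0.208 with pnet2_a and 1.75 ± 0.265 with pnet2_b (mean ± SD, n = 3). CRWN4 was at 7.36 ± 0.967 FPKM in WT and at 1.26 ± 0.0341, 1.55 ± 0.0794 and 1.51 ± 0.5 in the same order of mutants. Both were lower in every mutant library than in WT, as the labels say, and the PNET2 mutations were not checked. The library totals were 622263 to 669711 FPKM, the smallest values above 0 were 0.293 to 0.336 FPKM, and the read depth is unknown. The summed level of 4 leaf markers was 45203 ± 890 FPKM in WT, 45000.5 ± 2065 in the double mutant, 37045 ± 1268 with pnet2_a and 30721 ± 671 with pnet2_b. Each of the 4 leaf markers fell from the double mutant to either triple mutant, although none passed the test under quantile normalization. The summed level of 7 root, flower and seed markers was 13.5 to 21.8 FPKM, with 3 or 4 of the 7 listed at 0 in a library. The part of this marker shift in the NAC results was not tested, and in bulk leaf a change in the number of cells of a type and a change of RNA per cell cannot be told apart.

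NAC factors act as switches between growth and stress programmes. Several are held in the endoplasmic reticulum or another membrane by a C-terminal segment and enter the nucleus after cleavage, so that they carry signals from that membrane. In leaves, ORE1 and NAP promote senescence, JUB1 and VNI2 delay it, NAC017 and NAC013 carry mitochondrial stress signals, NAC062 and NAC103 act in endoplasmic reticulum (ER) stress, and NAC044 and NAC085 act after DNA damage below the NAC-family factor SOG1.

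The sequences shown are a microRNA that acts on the family, its best-paired stretches in 3 members, and promoters that hold motif matches. The microRNA miR164 restrains ORE1 and NAC100, and its mature forms, from the RefSeq annotation of the TAIR10.1 genome, are written 5′ to 3′ with the seed (bases 2 to 8) in capitals. All 3 loci share 1 seed, and miR164c differs from the others in its last base.
miR164a-5p: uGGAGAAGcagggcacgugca
miR164b-5p: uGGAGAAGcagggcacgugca
miR164c-5p: uGGAGAAGcagggcacgugcg
The sites below are the 21-base stretches of NAC100, ORE1 and ORS1 with the best pairing to miR164, with capitals for bases in Watson-Crick pairs. The NAC100 site (chr5:24701687-24701707, minus strand) has 1 mismatch and 1 G-U pair. The ORE1 site (chr5:15858797-15858817, minus strand) has 3 mismatches and 1 G-U pair, and that of ORS1, its closest relative, has 5 mismatches and 1 G-U pair (chr3:11034693-11034713, plus strand), as many as the best stretch of TIP, so its site does not stand out from the other members.
NAC100: TctACGTGCCCTGCTTCTCCA
ORE1: ctCACGTGaCCTGCTTCTCCg
ORS1: ctCACGTtaCCTaCTTCTCCg
All 3 sites lie in coding sequence, within 1 exon.

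Promoters of NAC044 and NAC085 are shown because both genes are known targets of SOG1 and were listed at 0 in every WT library, and that of NAC019 because it holds several matches to the core of the abscisic acid response element. Each line gives the 300 bases before the annotated start, 5′ to 3′ in the direction of transcription. Capitals in the first 2 mark a match to the palindromic SOG1 motif CTTNNNNNNNAAG, 65 to 53 bases before the start in NAC044 (chr3:228775-229074, plus strand) and 270 to 258 bases before it in NAC085 (chr5:4672959-4673258, minus strand). In NAC019 (chr1:19698483-19698782, minus strand) capitals mark ACGTG on either strand, an overlapping pair 126 to 121 bases before the start and 1 more at 64 to 60.
NAC044: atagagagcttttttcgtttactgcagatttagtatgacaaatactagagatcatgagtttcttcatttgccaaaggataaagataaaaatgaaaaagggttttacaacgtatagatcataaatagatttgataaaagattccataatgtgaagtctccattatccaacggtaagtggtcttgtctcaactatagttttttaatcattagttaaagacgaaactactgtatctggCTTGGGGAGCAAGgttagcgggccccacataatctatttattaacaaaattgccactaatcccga
NAC085: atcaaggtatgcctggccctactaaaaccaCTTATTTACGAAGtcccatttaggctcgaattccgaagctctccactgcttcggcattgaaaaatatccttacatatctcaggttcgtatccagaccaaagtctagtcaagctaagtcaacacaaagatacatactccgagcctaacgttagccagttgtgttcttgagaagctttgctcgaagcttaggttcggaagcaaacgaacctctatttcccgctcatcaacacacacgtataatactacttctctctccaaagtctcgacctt
NAC019: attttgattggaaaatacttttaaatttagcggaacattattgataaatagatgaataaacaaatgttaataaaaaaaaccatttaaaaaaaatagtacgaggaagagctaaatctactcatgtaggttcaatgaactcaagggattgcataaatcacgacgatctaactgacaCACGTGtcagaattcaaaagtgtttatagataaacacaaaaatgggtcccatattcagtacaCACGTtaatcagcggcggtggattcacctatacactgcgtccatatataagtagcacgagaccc
Over all 47 members, the SOG1 motif was in 7 promoters (14.9%, against 11.4% of 27443 promoters of this length in the annotation). Those 7 were NAC013, NAC069, RD26, NAC046, NAC090, NAC044 and NAC085. ACGTG, on either strand, was in 24 (51.1%, against 25.6%). The W-box core TTGAC, bound by WRKY factors, was in 21 (44.7%, against 50.4%). The mitochondrial dysfunction motif CTTGNNNNNCANG, bound by NAC017 and NAC013, was in 2 (4.26%, against 2.08%), and 1 of these matches is the same stretch of NAC044 as its SOG1 motif match. TCATCG, listed as unfolded protein response element III, was in 1, NAC047 (2.13%, against 7.89%). A match describes these letters and is not shown to be a bound site.

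Members were sorted by their known roles. A filter asking for 1 FPKM or more in 3 or more of the 12 libraries kept 39 of the 47. The 8 others were low throughout. NAC005 and NAC025 (AT1G61110) were listed at 0 in every library, NTL8 (AT2G27300) was above 0 in 1 library, at 0.438 FPKM, and NAC096, NAC100, NAC028, NAC057 (AT3G17730) and NAC084 never exceeded 1.24 FPKM. Of the 39, 27 also had 1 FPKM in at least 3 of the 6 WT and double mutant libraries. The other 12 (NAC016, NAC019, NAC055, NAC047, NAP, NAC046, JUB1, NAC090, NAC061, NAC085, NAC103 and NAC004) passed only through the triple mutants and so had to differ. Counts over the 39 are therefore descriptions and support nothing about the family.

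**Figure D1:**
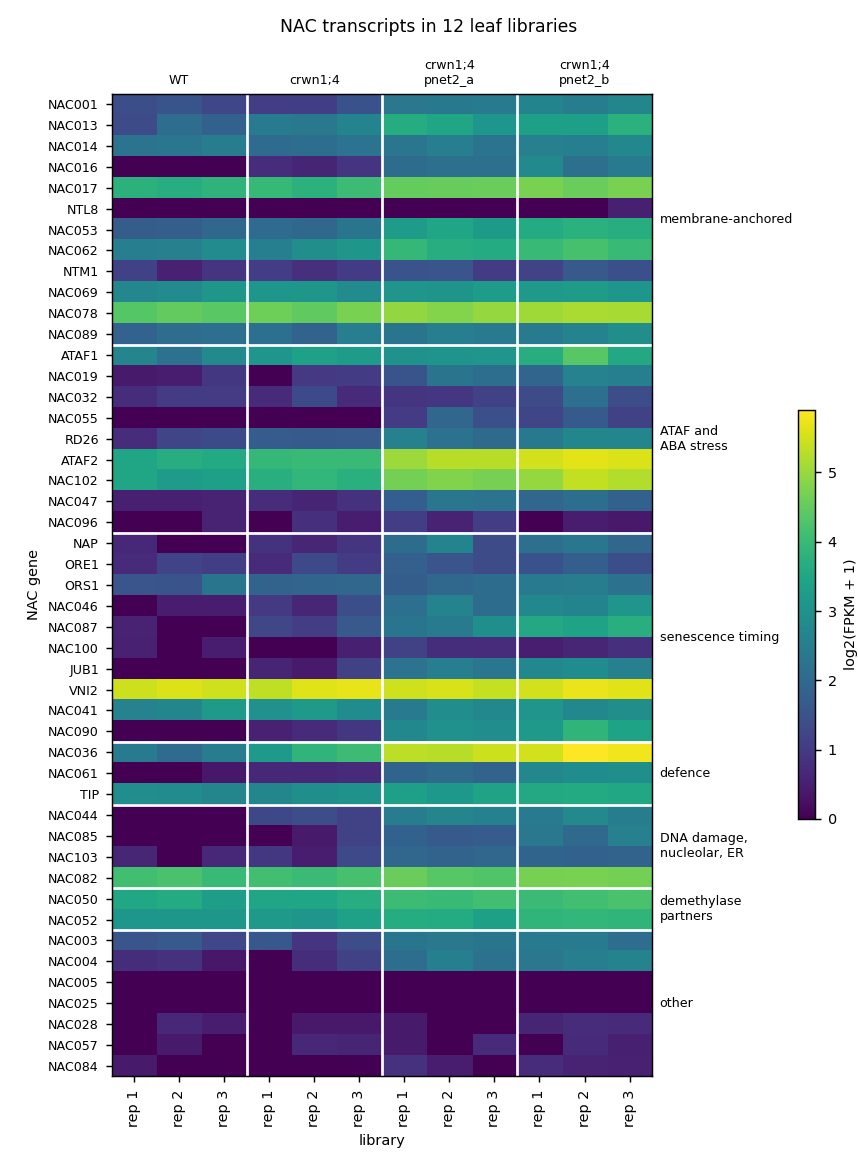
Levels of the 47 NAC genes (rows, ordered by role) in the 12 libraries (columns, 3 per genotype), as log2(FPKM + 1) on a colour scale. VNI2 is high in every column, and NAC036, ATAF2 and NAC102 grow brighter from WT to the pnet2_b triple mutant.

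The summed level of the 47 genes was 191.6 ± 5.82 FPKM in WT, 232.5 ± 21.2 in the double mutant, 385.6 ± 7.91 with pnet2_a and 484.8 ± 32.0 with pnet2_b (mean ± SD, n = 3). A few genes made up much of the difference between WT and the pnet2_b triple mutant: NAC036 gained 48.4 FPKM, which is 16.5% of it, ATAF2 gained 36.3 FPKM (12.4%) and NAC102 gained 26.2 FPKM (8.92%). The most abundant member in WT, VNI2, contributed little to it.

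Differences were tested with limma on log2(FPKM + 1), with p-values adjusted by the Benjamini-Hochberg method over 19110 genes, and a gene is said to have risen or fallen where its adjusted p was below 0.05. A log2 change on this scale understates the change of low genes. Between WT and the double mutant, 8 of the 39 members rose and none fell, where 2.41% of all genes tested rose and 0.591% fell. Between the double and the pnet2_a triple mutant 30 rose and none fell (all genes 22.9% and 9.2%), 19 of them by at least 2-fold on the fitted scale. Between the double and the pnet2_b triple mutant 34 rose and none fell (all genes 38.8% and 8.63%), 20 of them by at least 2-fold. Between the triple mutants 5 were higher in the pnet2_b triple mutant and none lower (all genes 2.12% and 0.754%). Against WT, 30 members rose in the pnet2_a triple mutant (all genes 25.4%) and 35 in the pnet2_b triple mutant (all genes 38.4%), and these comparisons share their WT libraries.

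The median log2 change of the 39 members was 0.19 from WT to the double mutant, 0.93 from the double to the pnet2_a triple mutant and 1.02 from the double to the pnet2_b triple mutant, and 0.27 between the triple mutants. Over all genes tested the medians were 0.01, 0.11, 0.23 and 0.12. With median-ratio scaling the all-gene medians from the double mutant to the triple mutants moved to 0.01 and 0.02, those of the members to 0.83 and 0.84, and the counts of members that rose to 26 and 29. Under that scaling 15.5% and 18.3% of all genes rose. Under quantile normalization 24 and 29 members rose, and NAC041 fell from the double to the pnet2_a triple mutant, by 0.47 on the log2 scale (limma adjusted p = 0.04). In 29 of the 39 members the lowest of the 6 triple mutant libraries lay above the highest of the 6 other libraries (all genes 22.3%). The genotype means ran upward from WT through the double and pnet2_a to the pnet2_b triple mutant in 27 members, against 24.9% of all genes.

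**Figure D2:**
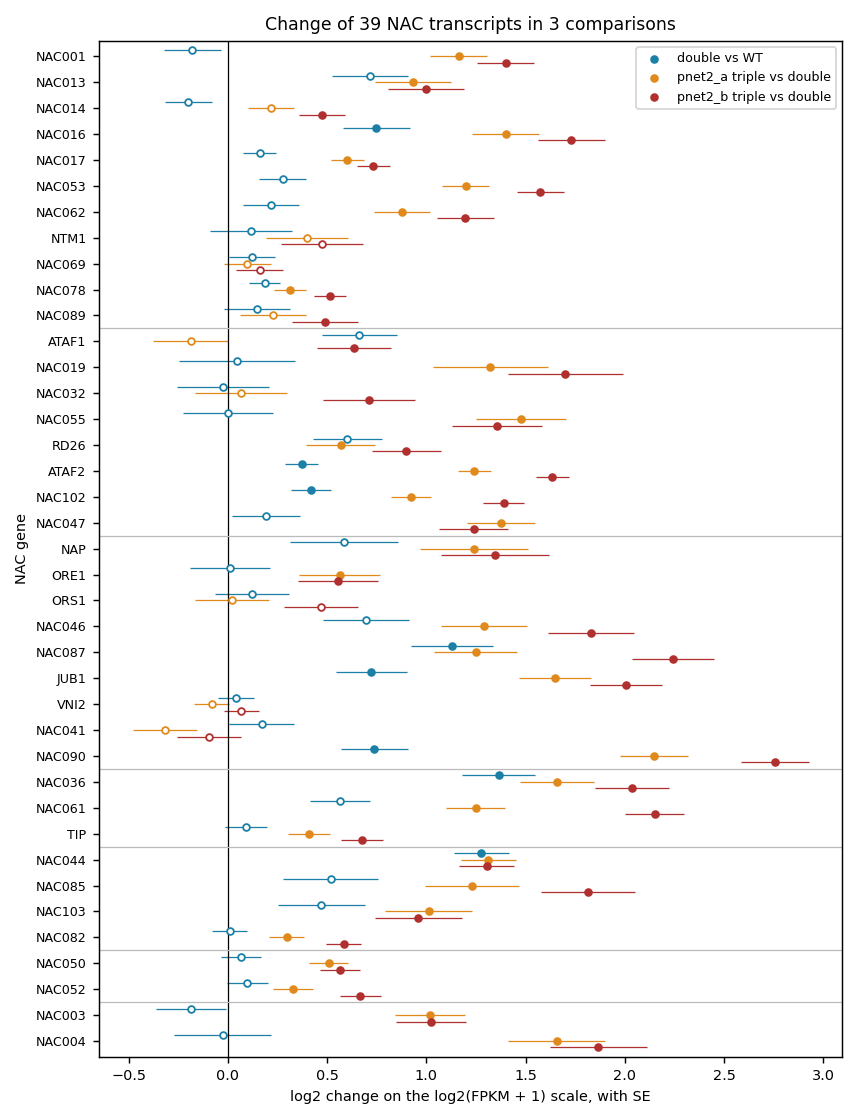
Log2 change on the log2(FPKM + 1) scale for the 39 NAC genes tested, by role, in the double mutant against WT and in each triple mutant against the double mutant. Points are limma estimates with bars of 1 SE, and filled points have an adjusted p below 0.05; no filled point lies below 0, although NAC041 fell with pnet2_a under quantile normalization.

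Among the membrane-anchored factors, 11 of 12 were tested. Of these, 1 rose in the double mutant (NAC016, AT1G34180), where 2.41% of all genes rose. From the double mutant 7 rose with pnet2_a and 9 with pnet2_b (all genes 22.9% and 38.8%). None differed between the triple mutants by the adjusted test, with 4 of the 11 at an unadjusted p below 0.05 (all genes 21.3%). NAC016, a promoter of leaf senescence, was listed at 0 in all 3 WT libraries. It was at 0.675, 0.52 and 0.859 FPKM in the double mutant, 3.25, 3.53 and 3.51 with pnet2_a and 6.09, 3.55 and 4.37 with pnet2_b. Its groups did not overlap, and from the double mutant it was 5.01-fold higher with pnet2_a (log2 change 1.40, SE 0.169, limma adjusted p = 2.56e-05) and 6.82-fold higher with pnet2_b (1.73, adjusted p = 2.06e-06). Its rise from WT to the double mutant (0.75, adjusted p = 0.0272, a value that depends on the pseudocount) was lost when WT replicate 1 or 3 was left out, and likewise double mutant replicate 1 or 3. It was also lost with a pseudocount of 5, under quantile normalization and in a fit on only the genotypes compared.

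NAC017 (AT1G34190), which shares 70.5% of its aligned residues with NAC016 and whose gene lies 117 bases away, was far more abundant and moved less. NAC017 is the regulator of the mitochondrial stress response that is released from the ER. It was at 12.8, 11.8 and 13.4 FPKM in WT, 14.4, 13 and 15.6 in crwn1;4, 21.9, 22.2 and 22.5 with pnet2_a and 25.2, 22.6 and 25.5 with pnet2_b. WT and the double mutant overlapped, and all 6 triple mutant libraries lay above both. The rise from the double mutant was 1.55-fold with pnet2_a (log2 change 0.60, SE 0.0833, limma adjusted p = 8.49e-05) and 1.71-fold with pnet2_b (0.73, adjusted p = 8.85e-06). NAC013 (AT1G32870), which acts in the same response, was at 1.61, 3.34 and 2.56 FPKM in WT, 4.4, 4.17 and 5.36 in crwn1;4, 11.7, 10.3 and 7.58 with pnet2_a and 9.31, 9.02 and 12.7 with pnet2_b. The double mutant lay above WT without passing the test (0.71, adjusted p = 0.0604), and both triple mutants rose from it (0.93, adjusted p = 0.00196, and 1.00, adjusted p = 0.000764).

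A list of 10 genes of the NAC017 and NAC013 response was tested beside them, and all 10 were kept. From WT to the double mutant 7 of the 10 rose (all genes 2.41%). From the double mutant 8 rose with pnet2_a and 10 with pnet2_b (all genes 22.9% and 38.8%). Without double mutant replicate 3 the first count was 4. The alternative oxidase gene AOX1A went from 15.6 ± 0.392 FPKM in WT to 25.4 ± 2.11, 52.2 ± 1.81 and 54.6 ± 1.33 in the double, pnet2_a and pnet2_b mutants (n = 3). OM66, a protein of the outer mitochondrial membrane, was at 1.46 ± 0.421, 5.22 ± 1.33, 19.1 ± 0.976 and 28.9 ± 4.25 FPKM in the same order. From WT to the double mutant the log2 change was 0.66 for AOX1A (limma adjusted p = 0.000125), 1.33 for OM66 (0.000458) and 0.66 for UPOX (0.00342), a gene upregulated by oxidative stress. The NAD(P)H dehydrogenase NDB2 did not pass there (0.27, adjusted p = 0.371) and rose in both triple mutants (1.06, adjusted p = 9.13e-05, and 1.54, adjusted p = 1.86e-06).

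NAC062 (AT3G49530), the membrane-anchored factor that induces PR genes and acts in the unfolded protein response, was at 4.72, 4.94 and 6.25 FPKM in WT, and its double mutant values were 4.86, 6.59 and 7.72. It was at 14.2, 11.8 and 11.4 FPKM with pnet2_a and 14.9, 17.2 and 15.1 with pnet2_b. WT and the double mutant overlapped, and the rises from the double mutant were 1.95-fold (log2 change 0.88, SE 0.143, limma adjusted p = 0.000329) and 2.46-fold (1.2, adjusted p = 1.38e-05). All 6 of its listed targets rose from the double mutant in both triple mutants (all genes 22.9% and 38.8%). In the double mutant 3 of the 6 rose (all genes 2.41%). PR5, a pathogenesis-related protein, was at 11.2 ± 1.13 FPKM in WT, 41.9 ± 17.8 in the double mutant, 201 ± 39.6 with pnet2_a and 253 ± 7.70 with pnet2_b, and its rise from WT to the double mutant was 1.74 on the log2 scale (adjusted p = 0.000301). The ER chaperones BIP1 and BIP2 did not pass in the double mutant (0.23, adjusted p = 0.255, and 0.25, adjusted p = 0.114) and rose with pnet2_b by 1.2 and 1.45 (adjusted p = 5.41e-07 and 3.24e-08). The stress-induced BIP3 was listed at 0 in WT replicates 1 and 2 and at 0.308 FPKM in replicate 3. BIP3 was at 0.404, 1.28 and 2.77 FPKM in the double mutant, 7.50, 5.57 and 7.85 with pnet2_a and 16, 14.1 and 21.6 with pnet2_b, with no overlap between these 3 genotypes.

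NAC053 (AT3G10500) and NAC078 (AT5G04410), which share 68.8% of their residues, activate proteasome genes under proteasome stress. NAC053 was at 2.35, 2.47 and 2.97 FPKM in WT, 3.21, 2.95 and 3.94 in crwn1;4, 8.61, 10.2 and 8.25 with pnet2_a and 11.3, 12.6 and 11.9 with pnet2_b. It rose 2.68-fold and 3.55-fold from the double mutant (log2 change 1.2, limma adjusted p = 5e-06, and 1.57, adjusted p = 2.24e-07). The more abundant NAC078, at 19.4, 21.3 and 20.2 FPKM in WT, reached 30.1, 27.1 and 30.2 with pnet2_a and 32.4, 34.4 and 34 with pnet2_b, from 23.4, 21.1 and 25.4 in the double mutant. Its rises were 1.25-fold (0.31, adjusted p = 0.00754, lost under median-ratio scaling and quantile normalization) and 1.44-fold (0.51, adjusted p = 0.000128). NAC001 (AT1G01010) was at 1.67, 1.9 and 1.38 FPKM in WT, with double mutant values of 1.11, 1.14 and 1.82, which overlapped. It was at 4.09, 4.21 and 4.37 FPKM with pnet2_a and 5.39, 4.57 and 5.57 with pnet2_b, rises of 3.12-fold and 3.82-fold from the double mutant (1.16, adjusted p = 3.2e-05, and 1.40, adjusted p = 3.36e-06).

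NAC089 (AT5G22290), which acts in cell death under ER stress, moved little. It was at 2.63, 3.3 and 3.47 FPKM in WT, 3.46, 2.68 and 4.77 in crwn1;4, 3.92, 4.77 and 4.34 with pnet2_a and 4.52, 5.29 and 6.51 with pnet2_b. Neighbouring genotypes overlapped. The change from the double mutant was 0.23 with pnet2_a (SE 0.167, limma adjusted p = 0.323) and 0.49 with pnet2_b (adjusted p = 0.0264), and the latter call was lost without double mutant replicate 1 or 2, without pnet2_b triple mutant replicate 2 or 3 and under both other scalings. NAC014 (AT1G33060) passed with pnet2_b (0.47, adjusted p = 0.00464, lost under both other scalings) and not with pnet2_a (0.22, adjusted p = 0.179). The adjacent genes NTM1 (AT4G01540), a regulator of cell division, and NAC069 (AT4G01550) passed in none of the 4 steps, with adjusted p of 0.072 and 0.278 from the double to the pnet2_b triple mutant.

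A hydrophobic C-terminus was predicted for each anchored member and for 2 others. In the longest RefSeq coding sequence of each, translated, all 12 had a stretch of 19 residues with a mean Kyte-Doolittle hydropathy of at least 1.6, at 1.95 to 2.81, within 60 residues of the end. Of the other 35, TIP (AT5G24590) (2.43) and NAC028 (AT1G65910) (1.94) had such a stretch at the end, and NAC050 (AT3G10480) and NAC084 (AT5G14000) had one further in. Of the 14 with a stretch near the end, NAC016 and NAC001 rose more than 2-fold with pnet2_a while NAC069 and NTM1 did not pass, so the members that share this feature differed widely.

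**Figure D3:**
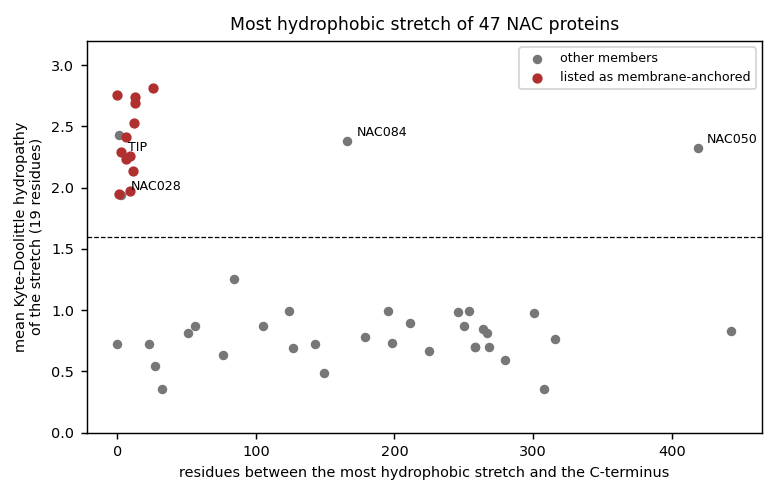
Highest mean Kyte-Doolittle hydropathy over 19 residues (y axis) against the number of residues between that stretch and the C-terminus (x axis) for the 47 NAC proteins. Red points are the 12 members listed as membrane-anchored, grey points the others, and the dashed line is the threshold of 1.6. The 12 membrane-anchored members lie at 1.95 to 2.81 near the C-terminus, with TIP and NAC028 among them.

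In the ATAF group and its abscisic acid and jasmonate relatives, 8 of 9 genes were tested. From WT to the double mutant 2 rose (all genes 2.41%). From the double mutant 6 rose with pnet2_a and 8 with pnet2_b (all genes 22.9% and 38.8%). Between the triple mutants 3 were higher with pnet2_b (all genes 2.12%). ATAF2 (AT5G08790), a regulator of defence and chlorophyll breakdown, was at 10.2, 11.8 and 11.1 FPKM in WT, 14.2, 14.7 and 14.7 in crwn1;4, 32.2, 37.8 and 37.5 with pnet2_a and 44.5, 50.1 and 47.2 with pnet2_b. No 2 genotypes overlapped. It rose 1.32-fold (log2 change 0.37, SE 0.0824, limma adjusted p = 0.0251), then 2.46-fold with pnet2_a (1.24, adjusted p = 2.31e-07) and 3.25-fold with pnet2_b (1.63, adjusted p = 2.42e-08). NAC102 (AT5G63790), which shares 65.7% of its residues with ATAF2 and acts in tolerance of low oxygen, was at 10.4, 8.69 and 9.15 FPKM in WT, with double mutant values of 12.1, 14 and 12.6. It reached 24.5, 26.7 and 24.7 FPKM with pnet2_a and 30.2, 40.1 and 36.4 with pnet2_b. No genotypes overlapped here either, and its rises were 1.37-fold from WT (0.42, adjusted p = 0.041), 1.96-fold with pnet2_a (0.92, adjusted p = 1.25e-05) and 2.76-fold with pnet2_b (1.39, adjusted p = 1.88e-07). The rise from WT to the double mutant was lost for ATAF2 without WT replicate 1 or 3 or any 1 double mutant library, and for NAC102 without WT replicate 2 or 3 or any 1 double mutant library. Both were also lost with a pseudocount of 5, without the trend and in a fit on only the genotypes compared. That of NAC102 was lost as well under quantile normalization and with the replicate number as a block.

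ATAF1 (AT1G01720) and NAC032 (AT1G77450), which share 59.9% of their residues and act in abscisic acid and stress responses, followed another course. ATAF1 was at 5.43, 3.7 and 6.05 FPKM in WT, 7.53, 9.46 and 8.48 in crwn1;4, 7.21, 7.33 and 7.4 with pnet2_a and 11.8, 19.9 and 10.9 with pnet2_b. The pnet2_a libraries lay just below the double mutant (log2 change -0.19, SE 0.189, limma adjusted p = 0.484), while those with pnet2_b lay above every other genotype, replicate 2 well above the others. Its rise from the double mutant with pnet2_b was 1.67-fold (0.64, adjusted p = 0.0131), and the call was lost without that replicate 2, without double mutant replicate 1, and under median-ratio scaling or quantile normalization. NAC032 was at 0.716, 1.05 and 1.07 FPKM in WT, 0.668, 1.49 and 0.662 in crwn1;4, 0.847, 0.913 and 1.24 with pnet2_a and 1.57, 3.49 and 1.63 with pnet2_b. Replicate 2 of the pnet2_b triple mutant again stood highest. The change from the double mutant was 0.06 with pnet2_a (adjusted p = 0.857) and 0.71 with pnet2_b (adjusted p = 0.0208), and the latter was lost without pnet2_b triple mutant replicate 2 or double mutant replicate 1 or 3, and under both other scalings.

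NAC019 (AT1G52890), NAC055 (AT3G15500) and RD26 (AT4G27410) are related factors that act in abscisic acid and jasmonate signalling and restrain salicylic acid accumulation. NAC055 was listed at 0 in all 6 WT and double mutant libraries. It was at 1.07, 2.87 and 1.7 FPKM with pnet2_a and 1.34, 2.19 and 1.24 with pnet2_b, which overlapped. Both rises passed (limma adjusted p = 0.000196 and 0.000255). NAC019, its closest member with 72.3% identity, was at 0.355, 0.378 and 0.951 FPKM in WT, at 0.969 and 1.04 in double mutant replicates 2 and 3 with replicate 1 listed at 0, at 1.91, 3.87 and 3.42 with pnet2_a and at 2.81, 5.19 and 4.82 with pnet2_b. All 6 triple mutant libraries lay above the rest, 5.47-fold and 7.62-fold higher than WT on average, and the log2 changes from the double mutant were 1.32 (adjusted p = 0.00314) and 1.70 (adjusted p = 0.000314). RD26 was at 0.683, 1.34 and 1.49 FPKM in WT, 2.32, 2.2 and 2.23 in crwn1;4, 4.91, 3.63 and 3.09 with pnet2_a and 4.26, 5.5 and 5.51 with pnet2_b. The double mutant lay above WT without passing (0.60, adjusted p = 0.0815), and RD26 rose with pnet2_a (0.57, adjusted p = 0.0222, lost without double mutant replicate 2 or 3 or pnet2_a triple mutant replicate 1 and under quantile normalization) and with pnet2_b (0.90, adjusted p = 0.000817).

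Of 8 listed genes downstream of these 3 factors, 7 were kept. In the double mutant 1 rose (all genes 2.41%). With pnet2_a 4 rose and 1 fell (all genes 22.9% and 9.2%), and with pnet2_b 5 rose (all genes 38.8%). ICS1, the salicylic acid synthesis gene that the 3 factors repress, was at 4.06 ± 0.334 FPKM in WT, 6.77 ± 2.28 in the double mutant, 18 ± 0.999 with pnet2_a and 31.2 ± 4.07 with pnet2_b (n = 3). It rose by 1.33 and 2.08 on the log2 scale from the double mutant (limma adjusted p = 2.25e-05 and 2.26e-07) and was higher with pnet2_b than with pnet2_a (0.76, adjusted p = 0.0242). The osmotin gene OSM34 rose with both (1.85, adjusted p = 9.55e-06, and 1.66, adjusted p = 1.42e-05), as did the lipoxygenase gene LOX2 (0.74, adjusted p = 0.000468, and 0.61, adjusted p = 0.00124) and the peroxidase gene GPX6 (0.34, adjusted p = 0.000774, and 0.36, adjusted p = 0.000276). The gene that fell with pnet2_a was VSP1, a jasmonate output named after its values were seen, at 17.7 ± 6.84 FPKM in the double mutant, 2.81 ± 0.999 with pnet2_a and 29.8 ± 18.2 with pnet2_b.

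NAC047 (AT3G04070), which promotes petiole bending under waterlogging, lies 6103 bases from NAC046 (AT3G04060). NAC047 was at 0.433, 0.425 and 0.511 FPKM in WT, 0.692, 0.516 and 0.799 in crwn1;4, 2.37, 4.02 and 3.76 with pnet2_a and 2.87, 3.42 and 2.54 with pnet2_b. The triple mutants overlapped and lay above the rest, 5.06-fold and 4.4-fold above the double mutant (log2 change 1.38, SE 0.172, limma adjusted p = 3.51e-05, and 1.24, adjusted p = 5.48e-05). NAC096 (AT5G46590), a partner of abscisic acid factors, was at most 1.09 FPKM and was not tested.

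Among the senescence regulators, 9 of 10 were tested. From WT to the double mutant 3 rose (all genes 2.41%). From the double mutant 6 rose with each PNET2 mutation (all genes 22.9% and 38.8%), and 1 was higher with pnet2_b than with pnet2_a (all genes 2.12%). NAC090 (AT5G22380), which restrains senescence and salicylic acid, had the largest fitted changes of the 39 members from the double mutant to each triple mutant at a pseudocount of 1, an order not kept at pseudocounts of 0.1 and 5. It was listed at 0 in every WT library and was at 0.462, 0.635 and 0.943 FPKM in the double mutant, 5.73, 6.99 and 6.49 with pnet2_a and 8.18, 13.6 and 9.69 with pnet2_b. No genotypes overlapped. The triple mutants were 9.43-fold and 15.4-fold above the double mutant (log2 change 2.15, SE 0.171, limma adjusted p = 7.62e-07, and 2.76, adjusted p = 5.35e-08). JUB1 (AT2G43000), which extends leaf lifespan under oxidative stress, was also listed at 0 in WT and was at 0.532, 0.334 and 1.2 FPKM in the double mutant, 3.78, 4.76 and 4.03 with pnet2_a and 5.78, 6.28 and 4.91 with pnet2_b. Its groups did not overlap, and it was 6.08-fold and 8.2-fold above the double mutant (1.65, adjusted p = 1.1e-05, and 2.01, adjusted p = 9.9e-07).

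The rises from WT to the double mutant were near the threshold for both NAC090 (adjusted p = 0.0316) and JUB1 (adjusted p = 0.0451). Without any 1 WT library neither passed, nor did NAC090 without double mutant replicate 2 or 3 and JUB1 without replicate 1 or 3. Both were also lost with a pseudocount of 5, under quantile normalization and in a fit on only the genotypes compared. That of JUB1 was lost as well with the replicate number as a block. Of 3 listed JUB1 targets, 1 rose and 1 fell from the double mutant with each PNET2 mutation. Of all genes, 22.9% and 38.8% rose, and 9.2% and 8.63% fell. DREB2A, a drought response factor, rose (log2 change 0.86, limma adjusted p = 0.00159, and 0.90, adjusted p = 0.000735). DWF4, a brassinosteroid synthesis enzyme, fell by 0.76 (adjusted p = 0.00172) and by 0.52 (adjusted p = 0.0123). The third target, GA3OX1, passed with neither. GA3OX1 was at 3.81 ± 0.187 FPKM in the double mutant, 2.74 ± 0.588 with pnet2_a and 3.19 ± 0.0593 with pnet2_b.

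**Figure D4:**
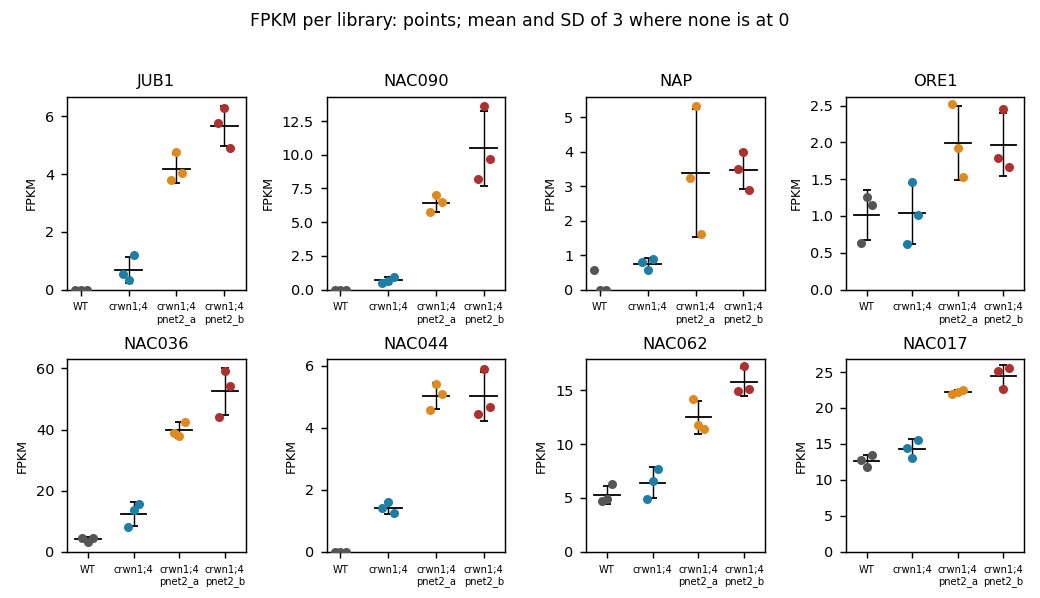
FPKM (y axis) of JUB1, NAC090, NAP, ORE1, NAC036, NAC044, NAC062 and NAC017 in each library, by genotype. Points are libraries, and bars give the mean and SD of 3 libraries, left out where a library is listed at 0. JUB1, NAC090 and NAC044 lie at 0 in WT, and NAC036 runs from 3.16 to 4.57 FPKM in WT to 44.1 to 59 in the pnet2_b triple mutant.

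NAP (AT1G69490), which promotes senescence and chlorophyll loss through abscisic acid, was at 0.575 FPKM in WT replicate 1 and listed at 0 in the others. It was at 0.813, 0.556 and 0.886 FPKM in the double mutant, 3.24, 5.32 and 1.61 with pnet2_a and 3.51, 4 and 2.89 with pnet2_b. The triple mutants overlapped each other and lay above all other libraries, 4.51-fold and 4.61-fold above the double mutant (log2 change 1.24, SE 0.273, limma adjusted p = 0.00316, and 1.35, adjusted p = 0.00114). ORE1 (AT5G39610), the central activator of leaf senescence, moved less. It was at 0.626, 1.26 and 1.15 FPKM in WT, 0.625, 1.46 and 1.02 in crwn1;4, 2.52, 1.92 and 1.53 with pnet2_a and 1.79, 2.46 and 1.66 with pnet2_b. Its changes from the double mutant were 0.56 in both (adjusted p = 0.0466 and 0.0355). Both calls were lost under median-ratio scaling and quantile normalization. The first was also lost with a pseudocount of 0.1, in a fit on only the genotypes compared, and without double mutant replicate 1 or 3 or pnet2_a triple mutant replicate 1 or 2, and the second was lost without double mutant replicate 1 or 3 or pnet2_b triple mutant replicate 1 or 2.

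ORS1 (AT3G29035), the closest relative of ORE1, was at 1.96, 1.88 and 3.94 FPKM in WT, 2.67, 2.83 and 2.84 in crwn1;4, 2.36, 2.98 and 3.24 with pnet2_a and 4.49, 4.68 and 3.61 with pnet2_b. It passed in neither triple mutant (log2 change with pnet2_b 0.47, limma adjusted p = 0.0512), and its difference from ORE1 was not tested. NAC100 (AT5G61430), with the closest match to the microRNA, stayed at or below 1.24 FPKM and was not tested. The MIR164a and MIR164c loci were listed at 0 in every library, and MIR164b was at most 0.832 FPKM, in libraries made from messenger RNA.

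NAC046 and NAC087 (AT5G18270), which share 65.2% of their residues, promote chlorophyll breakdown and programmed cell death. NAC087 was at 0.483 FPKM in WT replicate 1 and listed at 0 in the others, and was at 1.38, 1.09 and 2.12 FPKM in the double mutant, 3.93, 4.46 and 6.73 with pnet2_a and 10.9, 9.67 and 12 with pnet2_b. No genotypes overlapped. It rose in the double mutant (log2 change 1.13, SE 0.207, limma adjusted p = 0.0082, lost with a pseudocount of 5 and in a fit on only the genotypes compared), and was 3.29-fold and 7.09-fold above it with pnet2_a and pnet2_b (1.25, adjusted p = 0.000395, and 2.24, adjusted p = 1.29e-06). NAC046 was listed at 0 in WT replicate 1 and at 0.385 and 0.38 FPKM in the others. It was at 0.975, 0.551 and 1.66 FPKM in the double mutant, 3.49, 5.2 and 3.28 with pnet2_a and 5.8, 5.38 and 7.4 with pnet2_b. The double mutant lay above WT without passing (0.70, adjusted p = 0.109), and the rises from it were 3.76-fold (1.29, adjusted p = 0.000443) and 5.84-fold (1.83, adjusted p = 1.35e-05).

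VNI2 (AT5G13180), which delays senescence, was the most abundant member and passed in no step. It was at 43, 47.1 and 43.9 FPKM in WT, 39.8, 48.1 and 50.7 in crwn1;4, 43.9, 45.5 and 40.8 with pnet2_a and 44.5, 51.9 and 48.6 with pnet2_b. All genotypes overlapped, and its log2 changes from the double mutant were -0.08 (SE 0.0892, limma adjusted p = 0.518) and 0.07 (adjusted p = 0.551). NAC041 (AT2G33480), at 4.46 to 8.23 FPKM over all libraries, also passed in no step.

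Of 13 listed genes downstream of ORE1 and NAP, 10 were kept and none rose in the double mutant. From it 7 rose with each PNET2 mutation (all genes 22.9% and 38.8%). Under median-ratio scaling 3 rose in the pnet2_b triple mutant (all genes 18.3%). Against WT, 7 rose with pnet2_a and 5 with pnet2_b (all genes 25.4% and 38.4%). Among those kept, RNS3 was at 1.45 ± 0.657 FPKM in the double mutant, 1.37 ± 0.356 with pnet2_a and 1.76 ± 0.688 with pnet2_b. SAG12, the classical senescence protease, was listed at 0 in every WT library and in double mutant replicates 1 and 2, with 0.429 FPKM in replicate 3. SAG12 was at 2.53, 8.07 and 3.01 FPKM with pnet2_a and 8.47, 8.93 and 5.35 with pnet2_b, above all other libraries (limma adjusted p = 7.8e-05 and 3.23e-06). The chlorophyll breakdown gene NYE1 went from 5.27 ± 0.320 FPKM in the double mutant to 10.5 ± 0.819 and 13 ± 0.771 (log2 change 0.87, adjusted p = 0.000226, and 1.15, adjusted p = 1.21e-05). NYC1 and PPH, of the same pathway, rose by 0.31 and 0.40 with pnet2_a (adjusted p = 0.00921 and 0.00124) and by 0.48 and 0.37 with pnet2_b (adjusted p = 0.000302 and 0.00168).

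In a list of genes upstream of ORE1 and of GLK factors, 7 of 10 were kept. With each PNET2 mutation 2 rose, or 28.6% of those kept, against 22.9% and 38.8% of all genes. Another 2 fell with each (all genes 9.2% and 8.63%). None passed in the double mutant by the adjusted test, or 1 without WT replicate 2. EIN3, the ethylene factor that activates ORE1, was at 38.4 ± 1.49 FPKM in the double mutant, 51.6 ± 0.211 with pnet2_a and 58.1 ± 1.59 with pnet2_b (limma adjusted p = 0.00027 and 8.12e-06). GLK2, a chloroplast activator that ORE1 binds, fell by 0.76 and by 0.81 on the log2 scale (adjusted p = 1.2e-05 and 3.67e-06). GLK1, the other GLK factor listed and named after its values were seen, passed with neither PNET2 mutation. GLK1 was at 124.6 ± 2.63 FPKM in the double mutant, 133.9 ± 4.82 with pnet2_a and 123 ± 12.04 with pnet2_b. The clock genes went in opposite directions, PRR5 rising by 0.40 and 0.54 (adjusted p = 0.000695 and 4.08e-05) and PRR9 falling by 0.45 (adjusted p = 0.0192) and 0.52 (adjusted p = 0.00533).

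All 3 defence members were tested, and all 3 rose in each triple mutant from the double mutant (all genes 22.9% and 38.8%). NAC036 (AT2G17040), whose overexpression dwarfs the plant, gained the most FPKM of the 47. It was at 4.47, 3.16 and 4.57 FPKM in WT, 8, 13.6 and 15.5 in crwn1;4, 39, 37.9 and 42.6 with pnet2_a and 44.1, 59 and 54.2 with pnet2_b. No genotypes overlapped, and the pnet2_b triple mutant was 12.9-fold above WT. NAC036 rose 3.04-fold in the double mutant (log2 change 1.36, SE 0.186, limma adjusted p = 0.000998), a call kept without any 1 library and lost in a fit on only the genotypes compared, and then 3.23-fold with pnet2_a (1.66, adjusted p = 1.33e-05) and 4.25-fold with pnet2_b (2.04, adjusted p = 1.13e-06).

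NAC061 (AT3G44350), which shares 64.2% of its residues with NAC090, was listed at 0 in WT replicates 1 and 2 and at 0.304 FPKM in replicate 3. It was at 0.582, 0.602 and 0.665 FPKM in the double mutant, 2.75, 3.12 and 2.66 with pnet2_a and 5.63, 6.3 and 6.63 with pnet2_b. The genotypes were fully separated. It rose 4.61-fold from the double mutant with pnet2_a (log2 change 1.25, SE 0.149, limma adjusted p = 2.37e-05) and by 2.15 on the log2 scale with pnet2_b (adjusted p = 1.16e-07). TIP, which binds the coat protein of a plant virus, was at 6.4, 6.18 and 5.42 FPKM in WT, 5.6, 6.69 and 7.09 in crwn1;4, 9.04, 7.94 and 9.64 with pnet2_a and 10.8, 11.2 and 10.6 with pnet2_b. It rose 1.37-fold (0.41, adjusted p = 0.00928, lost under quantile normalization) and 1.68-fold (0.68, adjusted p = 0.000153).

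In the group of DNA damage, nucleolar and ER stress factors, all 4 were tested, and 1 rose in the double mutant (all genes 2.41%). From the double mutant 4 rose with each PNET2 mutation (all genes 22.9% and 38.8%). NAC044 (AT3G01600), which halts the cell cycle after DNA damage and whose promoter is printed above, was listed at 0 in all 3 WT libraries. It was at 1.41, 1.62 and 1.24 FPKM in the double mutant, 4.59, 5.4 and 5.08 with pnet2_a and 4.45, 5.91 and 4.68 with pnet2_b. WT, the double mutant and the triple mutants were separate from each other, while the ranges of the pnet2_a and pnet2_b libraries overlapped, with a difference of -0.01 on the log2 scale (SE 0.138, limma adjusted p = 0.979). It rose in the double mutant (1.28, adjusted p = 0.000173, a size that depends on the pseudocount), a call kept under every alternative run, and was 3.52-fold higher again in each triple mutant (adjusted p = 8.3e-06 and 4.51e-06). NAC085 (AT5G14490), with 63.4% identity to NAC044, was also listed at 0 in WT and in double mutant replicate 1, and was at 0.336 and 1.19 FPKM in replicates 2 and 3. It was at 2.56, 2.21 and 2.31 FPKM with pnet2_a and 4.17, 3.13 and 4.96 with pnet2_b, so the triple mutants did not overlap. The change from WT to the double mutant did not pass (0.52, adjusted p = 0.283), and those to the triple mutants did (1.23, adjusted p = 0.00128, and 1.81, adjusted p = 3.38e-05).

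Among 7 listed SOG1 pathway partners, 6 were kept and 1 rose in the double mutant (all genes 2.41%), or 2 without double mutant replicate 3. From the double mutant 4 rose with pnet2_a and 5 with pnet2_b (all genes 22.9% and 38.8%). SMR7, a cell cycle inhibitor induced by DNA damage, was the 1 that rose in the double mutant. SMR7 was listed at 0 in WT replicates 1 and 2 and at 0.665 FPKM in replicate 3, and was at 1.64, 1.53 and 1.54 FPKM in the double mutant (limma adjusted p = 0.00503). It was at 4.16, 4.36 and 3.35 FPKM with pnet2_a and 5.81, 5.13 and 6.90 with pnet2_b. SOG1 itself did not pass in the double mutant (log2 change -0.35, adjusted p = 0.243) and rose from 3.19 ± 1.02 FPKM there to 7.26 ± 0.450 and 8.43 ± 0.626 (adjusted p = 0.000146 and 2e-05). The repair gene BRCA1 rose by 0.64 and 0.81 (adjusted p = 0.0118 and 0.00177), and the E2F partner gene DPA by 0.61 and 0.53 (adjusted p = 0.00146 and 0.0024).

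NAC103 (AT5G64060), induced in ER stress by the factor BZIP60, was at 0.564 and 0.594 FPKM in WT replicates 1 and 3 and listed at 0 in replicate 2. It was at 0.955, 0.379 and 1.46 FPKM in the double mutant, 2.85, 2.66 and 2.86 with pnet2_a and 2.75, 2.55 and 2.66 with pnet2_b. The triple mutants overlapped and lay above the rest, 3-fold and 2.85-fold above the double mutant (log2 change 1.01, limma adjusted p = 0.00279, and 0.96, adjusted p = 0.00262, both lost with a pseudocount of 0.1). All 8 of its listed upstream and target genes were kept, and 1 rose in the double mutant (all genes 2.41%), or 2 without WT replicate 2. From the double mutant 7 rose with each PNET2 mutation (all genes 22.9% and 38.8%). BZIP60 was at 16.3 ± 1.85 FPKM in WT, 23.6 ± 1.11 in the double mutant, 47.5 ± 3.84 with pnet2_a and 57.8 ± 3.53 with pnet2_b, and it was the gene that rose in the double mutant (0.51, adjusted p = 0.00527). The folding genes CNX1, PDIL1-1 and CRT1 did not pass there (adjusted p = 0.407, 0.316 and 0.967) and rose with pnet2_b by 1.15, 1.25 and 0.94 (adjusted p = 1.2e-07, 1.77e-07 and 4.84e-07). NAC082 (AT5G09330), which acts in the response to ribosome defects, was at 16.4, 17.6 and 14.7 FPKM in WT, 16.5, 15.2 and 17.3 in crwn1;4, 22.5, 19.7 and 18.6 with pnet2_a and 24.7, 25.2 and 24.7 with pnet2_b. It rose 1.24-fold (0.30, adjusted p = 0.0193, lost without double mutant replicate 2 or pnet2_a triple mutant replicate 1 and under both other scalings) and 1.53-fold (0.58, adjusted p = 0.000114).

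NAC050 and NAC052 (AT3G10490), neighbours 129 bases apart with 71.3% identity, recruit the histone H3K4 demethylase JMJ14. NAC050 was at 10.5, 11.5 and 8.79 FPKM in WT, 10, 10.3 and 11.8 in crwn1;4, 15.5, 15.1 and 16.3 with pnet2_a and 15.2, 16.3 and 17.4 with pnet2_b. NAC052 was at 7.61, 7.74 and 7.68 FPKM in WT, 8.09, 7.49 and 9.38 in crwn1;4, 11.6, 11.4 and 9.18 with pnet2_a and 13.7, 14 and 13.5 with pnet2_b. Both rose from the double mutant in each triple mutant, NAC050 1.46-fold and 1.52-fold (limma adjusted p = 0.00141 and 0.000414) and NAC052 1.29-fold and 1.65-fold (adjusted p = 0.0234 and 0.000123). The NAC052 call with pnet2_a was lost without double mutant replicate 1 or 2 or pnet2_a triple mutant replicate 1 or 2, under both other scalings and in a fit on only the genotypes compared. Of 4 partner genes kept of 5 listed, none rose from the double mutant with pnet2_a (all genes 22.9%). JMJ14 (log2 change 0.40, adjusted p = 0.00163) and JMJ16 (0.39, adjusted p = 0.0185) rose with pnet2_b (all genes 38.8%). The count of 2 became 1 without double mutant replicate 1 or 2 or pnet2_b triple mutant replicate 2 or 3, and 0 under median-ratio scaling or quantile normalization.

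The tandem genes NAC003 (AT1G02220) and NAC004 (AT1G02230) have no role stated here. NAC004 was at 0.714, 0.788 and 0.304 FPKM in WT, at 0.713 and 1.21 in double mutant replicates 2 and 3 with replicate 1 listed at 0, at 3.41, 4.86 and 3.59 with pnet2_a and at 4.04, 4.78 and 5.28 with pnet2_b. All 6 triple mutant libraries lay above the rest, 6.57-fold and 7.81-fold over WT (limma adjusted p against the double mutant 0.000145 and 3.3e-05). NAC003 was at 1.95, 2.13 and 1.38 FPKM in WT, 2.05, 0.869 and 1.63 in crwn1;4, 3.91, 4.12 and 3.93 with pnet2_a and 4.29, 4.45 and 3.35 with pnet2_b, with log2 changes of 1.02 from the double mutant in both (adjusted p = 0.000582 and 0.000354). Their neighbour NAC005 (AT1G02250) was listed at 0 in every library.

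The 8 members that rose from WT to the double mutant were NAC016, ATAF2, NAC102, NAC087, JUB1, NAC090, NAC036 and NAC044, all of which rose further in both triple mutants. With single libraries left out, the count was 4 without WT replicate 1, 6 without WT replicate 2, 4 without WT replicate 3, and 4, 5 and 3 without double mutant replicates 1, 2 and 3. In a fit on only the genotypes compared it was 1, NAC044. Double mutant replicate 3 was the highest library of its genotype for 28 of the 39 members (71.8%, against 40% of all genes), and replicate 1 for 3 of them (7.69%, against 24.8%). Its part in the counts beyond these values was not tested.

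The 5 members higher with pnet2_b than with pnet2_a were ATAF1, ATAF2, NAC102, NAC087 and NAC061. ATAF1 was 1.94-fold higher (log2 change 0.82, SE 0.189, limma adjusted p = 0.036), ATAF2 1.32-fold (0.39, SE 0.0824, adjusted p = 0.0247), NAC102 1.41-fold (0.47, adjusted p = 0.0299) and NAC087 2.15-fold (1.00, adjusted p = 0.0242). NAC061 was 2.18-fold higher (0.90, adjusted p = 0.00682), and its call was kept without any 1 library and lost with a pseudocount of 0.1. With single libraries left out the count was 1, 1 and 2 without pnet2_a triple mutant replicates 1, 2 and 3, and 3, 1 and 2 without pnet2_b triple mutant replicates 1, 2 and 3. At an unadjusted p below 0.05, 17 of the 39 members and 21.3% of all genes passed. Replicate 2 of the pnet2_b triple mutant was the highest of its genotype for 24 members, where it was for 42.6% of all genes.

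**Figure D5:**
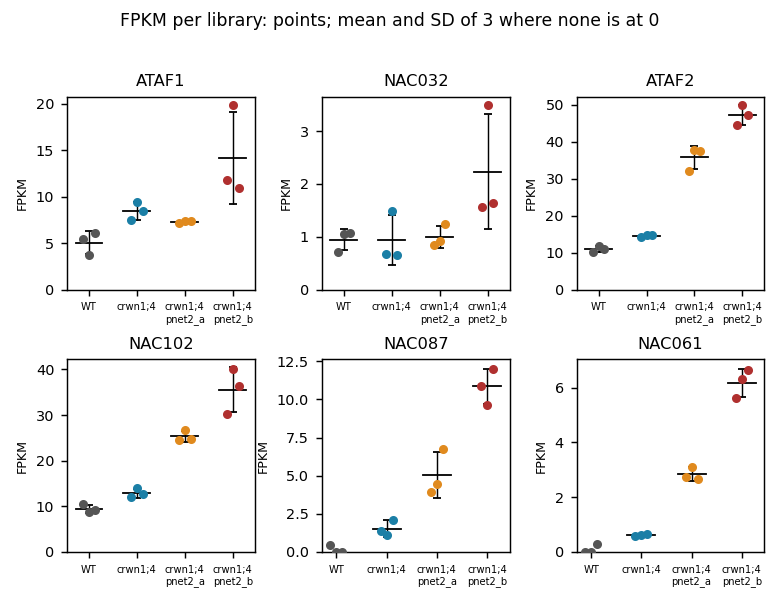
FPKM (y axis) of ATAF1, NAC032, ATAF2, NAC102, NAC087 and NAC061 in each library, by genotype. Points are libraries, and bars give the mean and SD of 3 libraries, left out where a library is listed at 0; the 3 pnet2_b triple mutant libraries lie above the 3 pnet2_a libraries in each panel, with replicate 2 of ATAF1 at 19.9 FPKM.

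Of 54 further NAC loci, 11 were kept, and none passed in the double mutant by the adjusted test (1 without double mutant replicate 3). From the double mutant 4 rose with pnet2_a and 2 with pnet2_b, where 22.9% and 38.8% of all genes rose, and none fell. Against WT, 4 rose and 1 fell in each triple mutant, where 25.4% and 38.4% of all genes rose. The share of all genes that fell from WT is not given here. With pnet2_b the gene that fell was NAC088, from 2.5 ± 0.318 FPKM in WT to 0.744 ± 0.323 (log2 change -1.02). NAC088 already lay lower in crwn1;4 without passing, at 1.19 ± 0.385 FPKM, every library below those of WT. Its level with pnet2_a was 0.864 ± 0.638 FPKM, so its fall from WT is not particular to pnet2_b. Beside SOG1, NTL9, a membrane-anchored immune regulator, rose from the double mutant with both PNET2 mutations (log2 change 0.56, limma adjusted p = 0.00113, and 0.72, adjusted p = 9.71e-05). NAC1, which acts in auxin signalling, went from 12.1 ± 2.71 FPKM in the double mutant to 19.3 ± 0.792 with pnet2_a (0.65, adjusted p = 0.0161) and 12.9 ± 2 with pnet2_b (0.10, adjusted p = 0.682).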

How the data were processed

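Messenger RNA from leaves was sequenced in 12 strand-specific libraries, 3 per genotype, per the labels' protocols. The deposited table holds FPKM values made by the authors, 1 per gene and library. Per the submitters' processing notes, reads were placed with HISAT2 2.0.4 and the genome build was TAIR10; the sources used here do not give the counting program, its strand setting or the annotation release. Depth is unknown, since FPKM removes it, so no counting interval is given. Genotype and replicate came from the sample titles, and no libraries had identical values.

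The filter asked for 1 FPKM or more in 3 or more of 12 libraries and kept 19110 of 32833 genes. Log2(FPKM + 1) values went into a linear model with genotype alone and an intensity trend, fitted once to the 12 libraries with 8 residual degrees of freedom (limma 3.58.1, R 4.3.3). P-values of 6 comparisons were adjusted by Benjamini-Hochberg over the genes kept. The method was tested on simulated data, with changes placed only in genes well expressed in WT. Its recovery of changes in genes low in WT was not tested. Fold values are ratios of mean FPKM, given only where no library of either genotype was listed at 0, and SD is over 3 libraries.

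The members, gene lists, tests and rule for named genes were chosen with earlier results of these data known. Named were all members by role, and up to 4 genes of each further list with the smallest adjusted p from the double to the pnet2_b triple mutant, plus a few picked with values in view, as stated there. Symbols follow common use, loci were matched by identifier to the RefSeq annotation of TAIR10.1, and promoters, microRNA sites and translated proteins were read from that genome with Biopython 1.88 in Python 3.11.15. Figures were drawn with matplotlib 3.10.9. Members NAC013, NAC078, ATAF1, ATAF2, NAC102, JUB1 and VNI2 are overlapped by a gene on the opposite strand. Neighbours like NAC050 and NAC052 (71.3% protein identity) or NAC052 and NAC053 (14 bases apart) could share fragments, which the authors' counting may have split. Alternatives were pseudocounts of 0.1 and 5, rescaling to a common total, no filter, a filter of 5 FPKM, median-ratio scaling, quantile normalization, no trend, a fit on the genotypes compared, the replicate number as a block, and each library left out.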

Additional observations from a re-analysis of the deposited data

How the results depend on the processing

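No member that rose in the fit reported first fell under any alternative run. From WT to the double mutant, 8 members rose, but 2 did with a pseudocount of 5, 4 under quantile normalization, 1 in a fit on the genotypes compared, and 3 to 6 with 1 library left out. From the double to the pnet2_a triple mutant the 30 became 17 with a filter of 5 FPKM, which tests 21 members, and 26 to 30 with 1 library left out. To the pnet2_b triple mutant the 34 became 18 with that filter and 30 to 34 with 1 library left out. Between the triple mutants the 5 became 3 with a pseudocount of 0.1, 2 under median-ratio scaling, 3 under quantile normalization, 2 without the trend and 1 to 3 with 1 library left out. Against WT, the 30 of the pnet2_a and 35 of the pnet2_b triple mutant became 17 and 18 with the filter of 5 FPKM and 28 to 31 and 31 to 36 with 1 library left out. The filter lowers the counts because fewer members are tested; the cause of the other changes was not tested.

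Replicate numbers did not pair the libraries: deviations from the genotype means correlated at -0.0842 to 0.0678 over 18 same-numbered pairs, across genes, and at -0.0719 to 0.109 over different numbers. With the replicate block, 6, 30, 34 and 4 members passed in the 4 steps, and 30 and 35 against WT. Unknown depth limits the reading of values near the smallest above 0.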
